A study of Mus musculus with 4 samples.

Results

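Autophagy delivers cytoplasm and worn organelles to the lysosome for breakdown, and in heart muscle cells it clears damaged mitochondria and protein aggregates and releases fuel during fasting. A kinase complex around ULK1 starts the process, a lipid kinase complex of Beclin 1, ATG14 and the class III phosphoinositide 3-kinase marks the membrane, and 2 ubiquitin-like conjugation systems attach ATG8 proteins (the LC3 and GABARAP proteins) to the growing autophagosome. Receptors such as p62 tie cargo to these ATG8 proteins, the autophagosome fuses with lysosomes, and lysosomal hydrolases digest the content. The transcription factor TFEB raises many lysosomal and autophagy genes when it enters the nucleus. GSK-3 kinases are among the enzymes known to phosphorylate TFEB and autophagy proteins.

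The genes described here are 30 genes of this machinery, from initiation to lysosomal hydrolases. They were chosen as the probe sets whose single gene symbol in the array annotation is 1 of 30 listed names, and every name was found, with 74 probe sets of the 45037 tested and 30 genes of 18193. A probe set is a group of short probes whose signals are combined into 1 value, and 21 of the 30 genes have more than 1. The study measured heart RNA of C57B6 mice aged 3.6 months, at baseline, on 4 single-colour arrays. There were 2 wild-type arrays and 2 arrays of a GSK-3α knock-in carrying alanine at position 21, where the normal kinase has serine; this removes the phosphorylation site through which Akt restrains this kinase. Nothing in the labels states that each array holds a different animal, so n counts arrays and a p-value measures only the spread between these 4 samples, which may be technical.

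All values are log2 RMA values as deposited, and each difference is knock-in minus wild-type, so a difference of 1 would be a doubling. Each gene is represented by 1 probe set, the brightest on average across all arrays. Those with a mean below 7 are called dim here and may hold mostly background; 17 of the 74 member probe sets are dim, and all 30 representative probe sets are at least 7. Levels of different probe sets cannot be set against each other on such arrays, so each difference below is taken between genotypes within 1 probe set. List medians and summed signals pool levels over several probe sets and are compared only between arrays. The brightest probe sets weigh most in the sums.

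Some facts of the whole series bear on these genes. Array medians lay between 6.14 and 6.23. The targeted gene Gsk3a read 11.16 and 11.08 on the wild-type arrays and 10.62 and 10.80 on the knock-in arrays (difference −0.42, limma adjusted p = 0.458), and a point substitution need not alter its transcript, so this checks the labels weakly. Cardiac muscle markers were bright on every array, with list medians from 14.60 to 14.71. Liver markers were higher on the knock-in arrays in 17 of 17 genes measured, with list medians of 5.97 and 5.39 in wild-type and 8.58 and 7.04 in knock-in hearts. Both knock-in arrays lay above both wild-type arrays for all 17, against 22.5% of all genes, and 11 of the 17 liver markers were dim. Their summed linear signal was 1506 and 964 against 8690 and 3310, and among the liver-defining genes albumin (Alb) read 7.33 and 5.72 against 10.81 and 9.66. The 3′ minus 5′ signal of the Gapdh control, a sign of RNA quality, was 0.62, 0.61, 0.54 and 0.76 on wild-type replicates 1 and 2 and knock-in replicates 1 and 2.

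Promoter windows of 8 members carry the sequence that TFEB and related factors read, and those of 15 others do not. Only these 23 members have an entry in the RefSeq promoter table of assembly GRCm38.p6. The sequence searched was the E-box CACGTG, which reads the same on both strands. Windows ran from 250 bases before to 50 bases after the start given by each promoter entry. Of 26 member windows 8 held it (30.8%), against 7.15% of all 32851 windows. The E-box flanked by T and A, the core of the CLEAR element named for coordinated lysosomal expression, was in 2 member windows (7.69%) and in 0.974% of all, and the 10-base CLEAR element with GT and AC as flanks was in 0 and 0.326%. The hits overlap by construction, since each longer motif contains the E-box. The element is named for genes of the kind listed here, so these shares describe the windows and are no independent result. Member windows were richer in G and C, with a median of 59.3% against 52.7%. Becn1, Pik3c3, Atg12, Atg16l1, Map1lc3a, Ctsb and Npc1 had no entry.

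The matches are shown because they let the lysosomal and conjugation genes be compared at the base level. Each line gives the strand-oriented sequence 5′ to 3′ with the E-box in capitals and the place of its first base relative to the start of the promoter entry. That start is not always the outer end of the gene. The Atg7 gene begins at chr6:114643127, far upstream of its window at chr6:114670846-114671145, so its E-box lies inside the gene. The Atg5 and Ctsl E-boxes also lie just inside the outer ends of their genes, at chr10:44268322 and chr13:64370772.
Lamp1, −61 (chr8:13159088-13159117, plus strand): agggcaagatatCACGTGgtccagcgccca
Lamp1, −45 (chr8:13159104-13159133, plus strand): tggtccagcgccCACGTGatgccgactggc
Lamp1, −28 (chr8:13159121-13159150, plus strand): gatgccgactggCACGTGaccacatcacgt
Lamp1, −15 (chr8:13159134-13159163, plus strand): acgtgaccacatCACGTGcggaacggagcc
Ctsd, −98, flanked by T and A (chr7:142387908-142387937, minus strand): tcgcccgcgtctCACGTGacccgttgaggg
Ctsd, −245 (chr7:142388055-142388077, minus strand): tccccCACGTGacctgtatccag
Ctsl, −236 (chr13:64370739-64370768, minus strand): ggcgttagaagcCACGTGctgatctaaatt
Gaa, −140 (chr11:119267811-119267840, plus strand): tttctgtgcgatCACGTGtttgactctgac
Atg3, −71, flanked by T and A (chr16:45158746-45158775, plus strand): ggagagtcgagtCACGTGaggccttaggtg
Atg3, −94 (chr16:45158723-45158752, plus strand): gcctccttttgtCACGTGtcctgggagagt
Atg5, −14 (chr10:44268313-44268342, plus strand): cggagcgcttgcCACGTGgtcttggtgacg
Atg7, −132 (chr6:114670952-114670981, plus strand): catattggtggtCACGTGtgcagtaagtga
Atg14, −1 (chr14:47568418-47568447, minus strand): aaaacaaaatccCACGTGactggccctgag

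Lamp1, which encodes an abundant glycoprotein of the lysosomal membrane, held 4 E-boxes within its last 61 bases before the start, and Ctsd and Atg3 held 2 each. A match is a description of letters and shows no binding.

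No member passed the test. Of 74 member probe sets 0 were called by limma at an adjusted p under 0.05, where 0.00666% of all probe sets were called. Without adjustment, 7 member probe sets had p under 0.05 and a higher value in the knock-in, and 0 a lower one, against 5.07% of all probe sets higher and 5.62% lower. All 7 are among the 57 member probe sets that are not dim, where the background of higher calls was 8.6%. They belong to Hexa, Gabarapl1, Becn1, Ulk2 and Lamp2, and Lamp2 is counted through several probe sets that share their RNA. By representative probe set 1 of 30 members was higher at that threshold, against 5.45% of all genes and 7.29% of genes with a mean of at least 7. The lowest adjusted p of any member probe set was 0.458, a value shared by many probe sets. With 2 arrays a group the median standard error of a difference was 0.12, so most of the differences below are of the size of their error. In these bulk samples, fewer cells of a type and less RNA per cell cannot be told apart.

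By probe set, 54 of 74 lay above 0, against 41.4% of all probe sets. Among those that are not dim it was 46 of 57, against 63.6%. By gene, 24 of 30 had a difference above 0 and 6 below, with a median of 0.09 and a range from −0.15 to 0.34. Among all genes 46.9% lay above 0 with a median of −0.01, but bright genes as a whole leaned the same way: of genes with a mean of at least 7, 65% lay above 0 with a median of 0.06, and of those with a mean of at least 10, 69.1%, against 16 of the 19 members that bright. The groups did not overlap, with both knock-in arrays higher, for 15 member genes, against 22.5% of all genes and 33.4% of genes with a mean of at least 7. Among the 19 members with a mean of at least 10 this held for 10, against 36.5%. They did not overlap the other way for 3, against 24.1% and 13.2%. The median over the members' levels was 11.01 and 10.99 on the wild-type arrays and 11.19 and 11.27 on the knock-in arrays.

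This lean depended on how the arrays were brought to 1 scale. Shifting the arrays to 1 median gave 28 members above 0 and a median of 0.15, whereas quantile normalisation of the deposited values gave 18 and 0.02, and cyclic loess 18 and 0.02. The median of genes with a mean of at least 7 moved alike, to 0.12, −0.01 and 0.00. Without knock-in replicate 1, the array with the most liver marker signal, the member median was 0.12, and without knock-in replicate 2, the array with the highest Gapdh 3′ minus 5′ signal, it was 0.08. The medians of genes with a mean of at least 7 were then 0.10 and 0.02. The members' mean after centring each gene was −0.04 and −0.05 on the wild-type arrays, 0.02 on knock-in replicate 1 and 0.07 on knock-in replicate 2.

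**Figure D1:**
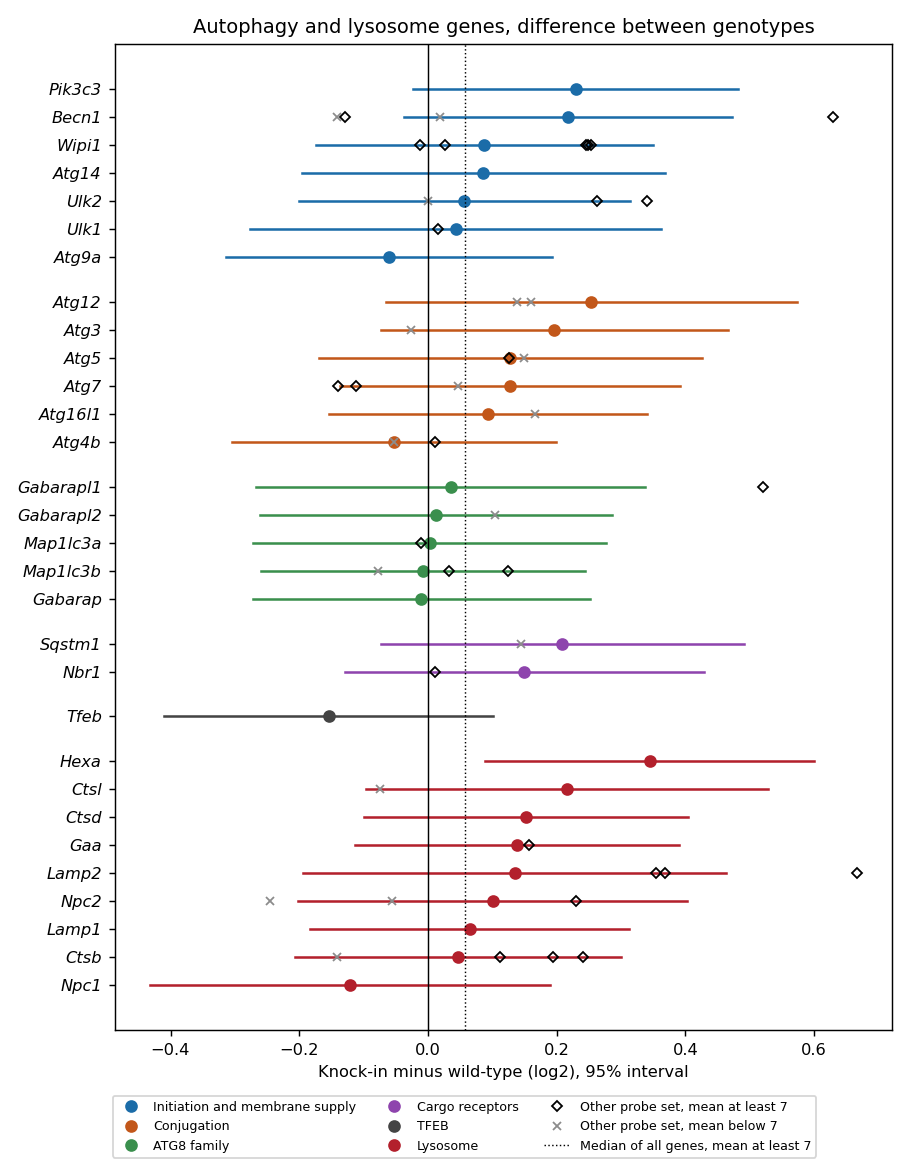
Knock-in minus wild-type differences (log2) of the 30 member genes by role. Filled circles are the representative probe sets with 95% intervals from limma, open diamonds and grey crosses the other probe sets. Hexa is the only representative whose interval lies above 0, and the ATG8 representatives lie between −0.01 and 0.04; their signs turn with the normalisation between arrays.

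Initiation and membrane supply genes differed by −0.06 to 0.23 by their representative probe sets, and 6 of 7 lay above 0 (4 of 7 after quantile normalisation or cyclic loess and without wild-type replicate 2). Pik3c3, the catalytic subunit of the class III phosphoinositide 3-kinase, read 7.33 and 7.41 in wild-type and 7.61 and 7.59 in knock-in hearts. Its 1 probe set differed by 0.23 (95% interval −0.02 to 0.48, limma adjusted p = 0.475), and the groups did not overlap. Becn1, which encodes Beclin 1, the scaffold of that kinase, read 9.92 and 9.82 against 10.08 and 10.10, a difference of 0.22 (−0.04 to 0.47, limma adjusted p = 0.486). The knock-in values lay close together above both wild-type values.

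Becn1 has 5 probe sets, and they differed in sign. The second brightest read 8.88 and 9.63 in wild-type and 9.93 and 9.84 in knock-in hearts, a difference of 0.63 (0.07 to 1.19, limma adjusted p = 0.458) that rests largely on wild-type replicate 1, since it was 0.25 without that array and 1.01 without wild-type replicate 2. The next, at 7.29 and 7.49 against 7.29 and 7.23, differed by −0.13. The remaining pair was dim and differed by −0.14 and 0.02. Probe sets read different stretches of a transcript or its variants, and which ones was not examined here.

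Ulk1 and Ulk2 encode the kinases at the head of the pathway. Ulk1 overlapped between the genotypes, with 10.86 and 10.59 against 10.69 and 10.84 and a difference of 0.04 (−0.28 to 0.36). Ulk2 differed by 0.06 by its representative probe set, at 9.47 and 9.41 against 9.54 and 9.45. Its other 2 probe sets that were not dim lay higher in both knock-in arrays: 1 read 9.04 and 9.39 against 9.55 and 9.55 (difference 0.34, limma adjusted p = 0.467), the other 8.98 and 8.97 against 9.31 and 9.16 (0.26, adjusted p = 0.468). The first of these was 0.17 without wild-type replicate 1.

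Wipi1 encodes a protein that binds the lipid made by the class III kinase and has 6 probe sets. The brightest differed by 0.09, 3 others by 0.25 each, and the last 2 by 0.03 and −0.01. In 2 of the 3 at 0.25, both knock-in arrays lay above both wild-type arrays, at 9.33 and 9.30 against 9.47 and 9.65, and at 9.18 and 9.13 against 9.39 and 9.41. Atg14, the subunit that directs the lipid kinase to autophagy, differed by 0.09 (−0.20 to 0.37) and overlapped. Atg9a, the transmembrane carrier of lipid vesicles, differed by −0.06 (−0.31 to 0.19), and this sign turned, to 0.00, when arrays were shifted to 1 median.

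**Figure D2:**
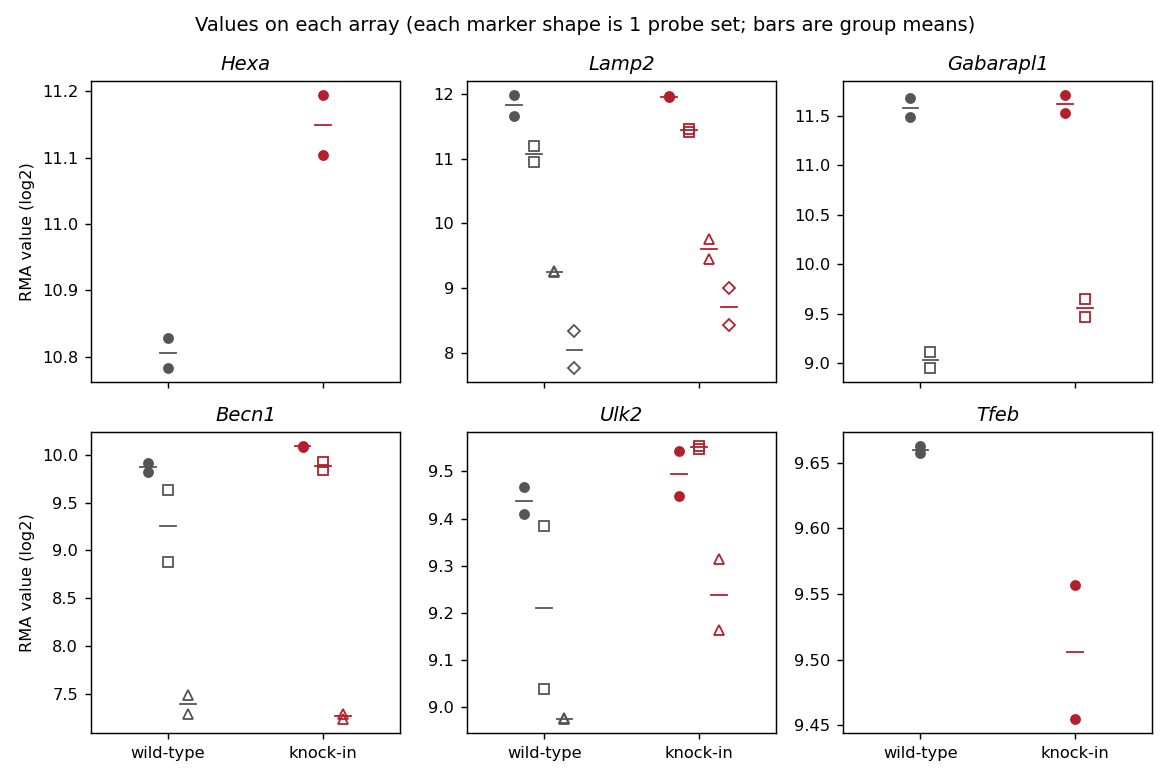
RMA values (log2) on each of the 4 arrays for 6 members, in grey for wild-type and red for knock-in, with 1 marker shape per probe set that is not dim (filled: representative) and bars at the group means. The Hexa groups are 10.78 and 10.83 against 11.10 and 11.20, and each panel has its own vertical range.

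The conjugation genes differed by −0.05 to 0.25, and 5 of 6 lay above 0 in all but 2 settings tried (6 with arrays shifted to 1 median, 4 after averaging the probe sets of a gene). Atg12, the ubiquitin-like protein joined to ATG5, read 9.11 and 9.27 in wild-type and 9.32 and 9.57 in knock-in hearts. It differed by 0.25 (−0.07 to 0.57, limma adjusted p = 0.499), and its dim probe sets by 0.16 and 0.14. The value was 0.13 without knock-in replicate 2 and 0.38 without knock-in replicate 1.

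Atg3, the enzyme that passes ATG8 proteins to the membrane lipid, read 10.11 and 10.25 against 10.34 and 10.42. Its difference was 0.20 (−0.07 to 0.47, limma adjusted p = 0.521), with no overlap, and 0.12 without wild-type replicate 1. Atg7 encodes the activating enzyme of both systems and had its 3 probe sets that were not dim on both sides of 0. The representative read 7.88 and 7.88 against 8.08 and 7.94 (difference 0.13, limma adjusted p = 0.645), the others 8.07 and 7.86 against 7.88 and 7.78 (−0.14) and 7.96 and 7.80 against 7.84 and 7.70 (−0.11). No direction can be given for Atg7.

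Atg5, the partner of ATG12, gave 0.13, 0.13 and, from a dim probe set, 0.15, all with overlapping groups; the first was 0.03 without wild-type replicate 1 and 0.05 without knock-in replicate 2. Atg16l1, which places the ATG12–ATG5 conjugate on the membrane, differed by 0.09 (−0.15 to 0.34). Its arrays agreed closely, at 9.43 and 9.44 against 9.53 and 9.52. Atg4b, the protease that trims and recycles ATG8 proteins, differed by −0.05 (−0.30 to 0.20) and by 0.01 by its other probe set that was not dim. Its sign also turned, to 0.01, with arrays shifted to 1 median.

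The ATG8 family, the proteins that coat the autophagosome, differed little by the deposited values: the 5 representative probe sets lay between −0.01 and 0.04, with 3 above 0 by RMA values, 5 with arrays shifted to 1 median and 0 after quantile normalisation or cyclic loess. Their median was then −0.05 and −0.06, and −0.06 without wild-type replicate 2. Map1lc3a, which encodes LC3A, read 13.27 and 13.12 in wild-type and 13.14 and 13.25 in knock-in hearts, a difference of 0.00 (95% interval −0.27 to 0.28). Map1lc3b, which encodes LC3B, the usual marker of autophagosomes, read 12.24 and 12.30 against 12.28 and 12.24 (−0.01, −0.26 to 0.24). The genotypes overlapped for both.

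Gabarap read 12.27 and 12.19 against 12.27 and 12.16 (−0.01, −0.27 to 0.25), and Gabarapl2 11.43 and 11.25 against 11.34 and 11.37 (0.01, −0.26 to 0.29). The groups overlapped for both, and the intervals leave room for a difference in either direction. Transcript levels do not measure the lipid-bound forms of these proteins, which assays of autophagy usually follow.

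Gabarapl1 was the family member with discordant probe sets. Its brighter probe set read 11.67 and 11.49 in wild-type and 11.52 and 11.71 in knock-in hearts, a difference of 0.04 (−0.27 to 0.34). Its other probe set read 8.95 and 9.12 against 9.47 and 9.64, a difference of 0.52 (0.23 to 0.82), which is 1.43-fold, with no overlap and an unadjusted p of 0.00453, the smallest of any member by the deposited values (limma adjusted p = 0.458). That value lay between 0.43 and 0.61 with each array left out in turn, and at 0.43 and 0.45 after quantile normalisation and cyclic loess. The brighter probe set has the suffix of a design that can also bind related transcripts. Such a suffix is also carried by other probe sets, among them the Becn1 one at 0.63 and the Lamp2 one at 0.37. The representative probe sets of Wipi1, Map1lc3a and, below, Foxo1, Flcn, Pik3r4, Tmem41b and Phb2 carry one as well. Which of the pair reflects the gene was not tested.

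The Gabarapl1 sequence over the 250 bases before the start (chr6:129532942-129533191, plus strand, GRCm38.p6), is shown because this gene is known as a FoxO target in muscle and Foxo1 is among the upstream genes below. Capitals mark the forkhead core, searched as TGTTTA and its reverse complement TAAACA, a search chosen after the values had been seen.
Gabarapl1: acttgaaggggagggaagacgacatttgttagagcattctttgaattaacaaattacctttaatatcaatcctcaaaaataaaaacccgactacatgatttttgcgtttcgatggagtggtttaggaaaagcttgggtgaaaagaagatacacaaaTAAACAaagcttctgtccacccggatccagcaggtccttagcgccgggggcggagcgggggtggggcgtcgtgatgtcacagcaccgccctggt
It holds 1 match, at −94. The core was in 2 of 26 member windows (7.69%), those of Gabarapl1 and Ctsl, and in 13.4% of all windows.

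The cargo receptor genes were both higher in the knock-in means by RMA values and in all settings tried, without passing the test. Sqstm1, which encodes p62, a receptor for ubiquitinated cargo that is itself degraded by autophagy, read 12.09 and 11.93 against 12.15 and 12.29. Its difference was 0.21 (−0.07 to 0.49, limma adjusted p = 0.516). Nbr1, a related receptor, read 11.16 and 11.32 against 11.33 and 11.45, a difference of 0.15 (−0.13 to 0.43, adjusted p = 0.611), while its second probe set differed by 0.01 with overlapping groups. For Sqstm1 both knock-in values lay above both wild-type values. Its difference was 0.13 without wild-type replicate 2, and that of Nbr1 was 0.07 without wild-type replicate 1 and 0.09 without knock-in replicate 2.

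Tfeb had the lowest difference of the 30 members by the deposited values, though without wild-type replicate 2 Npc1, at −0.25, lay lower. Its 1 probe set read 9.66 and 9.66 in wild-type and 9.45 and 9.56 in knock-in hearts, a difference of −0.15 (95% interval −0.41 to 0.10, limma adjusted p = 0.576). Both knock-in values lay below both wild-type values, and the difference stayed below 0 in every setting tried, from −0.09 with arrays shifted to 1 median to −0.24 after quantile normalisation. TFEB is controlled largely by phosphorylation and movement to the nucleus, which these arrays do not measure.

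Among the 9 lysosomal members 8 had a difference above 0 (7 after quantile normalisation or cyclic loess), with a median of 0.13 that became 0.07 after either of those normalisations. Both knock-in arrays were higher for 6 of the 9, against 22.5% of all genes and 33.4% of genes with a mean of at least 7. Hexa, the alpha subunit of the enzyme that removes a sugar from GM2 ganglioside, read 10.78 and 10.83 in wild-type and 11.10 and 11.20 in knock-in hearts. Its difference was 0.34 with a standard error of 0.11 (95% interval 0.09 to 0.60), which is 1.27-fold, and it was the only representative probe set with an unadjusted p under 0.05 (limma adjusted p = 0.458). At that unadjusted threshold 5.45% of all genes were higher and 4.76% lower. Of genes with a mean of at least 7, 7.29% were higher. Both knock-in values lay above both wild-type values, and the difference stayed between 0.30 and 0.39 with each array left out. It was 0.27 after quantile normalisation or cyclic loess.

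Lamp2, a membrane protein needed for autophagosomes to clear in heart muscle and mutated in Danon disease, has 4 probe sets, none dim and all above 0. The brightest read 11.66 and 11.99 against 11.95 and 11.96, a difference of 0.13 (−0.19 to 0.46) with overlapping groups, and it was −0.03 without wild-type replicate 1. The others did not overlap. The second read 10.95 and 11.19 against 11.41 and 11.46, a difference of 0.37 (0.07 to 0.66), and it was 0.25 without wild-type replicate 1.

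The third Lamp2 probe set read 9.24 and 9.26 against 9.45 and 9.76, a difference of 0.35 (0.03 to 0.67), which was 0.20 without knock-in replicate 2 and 0.51 without knock-in replicate 1. The fourth read 7.76 and 8.33 against 8.99 and 8.44, a difference of 0.67 (0.08 to 1.25), with replicates of each genotype far apart. It was 0.38 without wild-type replicate 1, 0.39 without knock-in replicate 1, and 0.95 without either of the other arrays. Each of the 3 had a limma adjusted p of 0.458. Lamp2 gives rise to isoforms with different last exons, and which probe set reads which was not examined here.

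The cathepsins are the main lysosomal proteases. Ctsl, encoding a cathepsin on which the heart depends, read 11.79 and 12.08 in wild-type and 12.19 and 12.12 in knock-in hearts, a difference of 0.22 (−0.10 to 0.53, limma adjusted p = 0.535), and was 0.08 without wild-type replicate 1. Ctsd, the aspartic protease, read 12.89 and 12.86 against 12.99 and 13.06 (0.15, −0.10 to 0.40, adjusted p = 0.573). For both genes the genotypes did not overlap.

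Ctsb has 4 probe sets that were not dim, at 0.05, 0.19, 0.11 and 0.24, all above 0. The brightest read 12.97 and 12.98 against 12.98 and 13.06 and turned to −0.02 and −0.01 after quantile normalisation and cyclic loess. Gaa, the acid alpha-glucosidase that breaks down glycogen within lysosomes and is deficient in Pompe disease, read 11.17 and 11.16 against 11.27 and 11.34. Its difference was 0.14 (−0.11 to 0.39, limma adjusted p = 0.605), and its second probe set gave 0.16, both without overlap.

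Lamp1 differed by 0.06 (−0.18 to 0.31), at 13.14 and 13.18 against 13.23 and 13.22. Npc1 and Npc2 pass cholesterol out of the lysosome. Npc2, the soluble carrier, differed by 0.10 and 0.23 by its probe sets that were not dim, and the first of these was 0.00 with knock-in replicate 2 left out and 0.01 with wild-type replicate 2 left out. Npc1, the membrane partner, differed by −0.12 (−0.43 to 0.19), at 8.30 and 8.04 against 8.10 and 7.999. The Npc1 value rests on wild-type replicate 1, being 0.01 without it.

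Agreement between probe sets of 1 gene was limited. Of 15 members with more than 1 probe set that was not dim, all had the same sign in 9, each time above 0, and signs were mixed in 6. Over the 27 such probe sets that were not the representative, 22 lay above 0 with a median of 0.16, against 63.6% of all probe sets that were not dim, whose median was 0.06. In 14 of these 27 both knock-in arrays were higher, against 32.9%. These probe sets share their RNA with the representative ones and are no independent samples.

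By their representative probe sets the 8 members with an E-box in the promoter window had differences above 0, from 0.06 for Lamp1 to 0.22 for Ctsl with a median of 0.13. Of the 15 without, 10 were above 0, with a median of 0.04. The same split over all genes with a promoter entry gave 55.1% above 0 for 1473 genes with an E-box and 47.1% for 12895 without. That split includes dim genes, whereas no member representative is dim, and 65% of all genes with a mean of at least 7 lay above 0. In the wider autophagy and lysosome lists described next the split ran the other way, with 12 of 18 genes above 0 with an E-box and 51 of 61 without. Lamp1, with the most E-boxes, differed by 0.06. No difference between these splits was tested, and the count rests on small values: Atg14 turned to −0.01 without wild-type replicate 2, and Atg7 to −0.02 after averaging its probe sets, of which 2 that were not dim lay below 0.

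**Figure D3:**
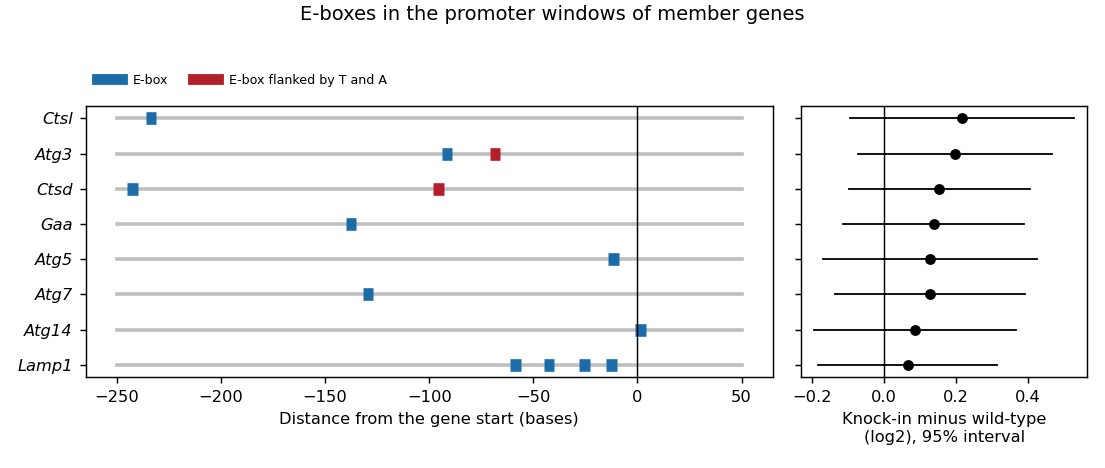
Left, positions of E-boxes for the 8 members that hold one, in red where flanked by T and A. Windows run from 250 bases before to 50 after the start of the promoter entry. The Atg5, Atg7 and Ctsl E-boxes lie inside the outer ends of their genes. Right, knock-in minus wild-type differences (log2) of these genes with 95% intervals; the 8 representative probe sets lie from 0.06 to 0.22, every interval includes 0, and Atg7 and Atg14 turn below 0 in other settings.

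Wider lists of the same pathways gave similar small values, and no gene of them passed the test. Of 31 measured hydrolases outside the members, 28 lay above 0 (24 after quantile normalisation or cyclic loess and 22 without wild-type replicate 2), with a median of 0.14. Without the 3 dim hydrolases it was 26 of 28, against 65% of all genes with a mean of at least 7. At an unadjusted limma p under 0.05, 6 of the 31 were higher, against 5.45% of all genes and 7.29% of those with a mean of at least 7. Naglu, 1 of the 6, is dim. The smallest p belonged to Ppt1, a palmitoyl-protein thioesterase lost in infantile neuronal ceroid lipofuscinosis. It read 9.88 and 10.01 in wild-type and 10.54 and 10.52 in knock-in hearts, a difference of 0.59 (95% interval 0.32 to 0.85, limma adjusted p = 0.406).

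A second Ppt1 probe set gave 0.57, and over the normalisations and left-out arrays tried the first stayed between 0.51 and 0.65. The sialidase gene Neu1 differed by 0.42. Naglu, which encodes an enzyme of heparan sulfate breakdown, was dim and differed by 0.44. On the other side lay Gla at −0.35, which was dim, Tpp1 at −0.11 and Gm2a, the activator protein that works with the Hexa product, at −0.04. The other Tpp1 probe set, also not dim, differed by 0.07.

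The proton pump that acidifies lysosomes, the V-ATPase, had 13 of 15 subunit genes above 0 with a median of 0.08, but 8 of 15 with medians of 0.00 after quantile normalisation and cyclic loess, and 9 without knock-in replicate 2. Atp6v1h, a regulatory subunit, read 8.07 and 7.999 against 8.42 and 8.42, a difference of 0.38 (0.13 to 0.64, limma adjusted p = 0.458). Atp6v1c1 differed by 0.27 and Atp6v1d by 0.36, while Atp6v1a, a catalytic subunit, differed by −0.11 and Atp6v1g1 by −0.10. Over the settings tried Atp6v1d ranged from 0.12 to 0.60, Atp6v1a from −0.21 to −0.02, and Atp6v1g1 turned sign, from −0.25 to 0.05. The other Atp6v1a probe set, also not dim, differed by 0.06. Without adjustment 2 of 15 subunit genes had p under 0.05, both above 0, against 7.29% of genes with a mean of at least 7.

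Other genes of core autophagy lay above 0 in 20 of 26 cases with a median of 0.06, and in 13 of 26 with a median of −0.01 after quantile normalisation. Epg5, Pik3r4 and Nrbf2 differed by 0.27, 0.24 and 0.31, and Tmem41b, Wipi2 and Atg13 by −0.21, −0.14 and −0.08. Over the settings tried Pik3r4 ranged from 0.12 to 0.36, Nrbf2 from 0.08 to 0.54, Wipi2 from −0.26 to −0.02 and Atg13 from −0.17 to 0.00, turning sign. The other Wipi2 probe set that was not dim differed by 0.11. Other Tmem41b probe sets that were not dim differed by 0.19, −0.14, −0.06 and −0.03. Epg5 acts in fusion with lysosomes, and Pik3r4 and Nrbf2 belong to the Beclin 1 kinase complex with Pik3c3. Only Epg5, whose mean lay just under 7, had an unadjusted p under 0.05.

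Of 12 other cargo receptors measured 10 lay above 0, with a median of 0.15, and 9 after quantile normalisation or cyclic loess. Tollip differed by 0.25, Bag3, a co-chaperone of muscle protein quality control, by 0.21, and Retreg1, a receptor for endoplasmic reticulum, by 0.22. The mitochondrial receptor gene Bnip3 differed by −0.13 and Phb2 by −0.01, and 0 had an unadjusted p under 0.05. Other Phb2 probe sets, none dim, differed by 0.09, 0.07 and 0.08. Its representative turned sign over the settings tried, from −0.09 to 0.05. The other Tollip probe set, also not dim, differed by −0.02. The 8 other lysosomal membrane genes were split, with 4 above 0 and a median of 0.00. Among them Tmem192 differed by 0.32 and 0.38 by its pair of probe sets, Scarb2 by 0.09 and Ctns, the cystine exporter, by 0.06 from dim values, against Slc17a5 at −0.09, Laptm4a at −0.06 and Mcoln1, a calcium channel of the lysosome, at −0.02.

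Upstream regulators of autophagy were mixed, with 12 of 20 above 0 and a median of 0.04 (7 of 20 and medians of −0.03 after quantile normalisation or cyclic loess, and 9 of 20 with −0.03 without knock-in replicate 2). Foxo1, a factor that Akt holds out of the nucleus and that induces autophagy genes, read 8.82 and 8.78 in wild-type and 9.18 and 9.28 in knock-in hearts, a difference of 0.43 (0.17 to 0.69, limma adjusted p = 0.458). Its other probe sets that were not dim gave 0.32 and 0.11. Flcn, which acts on the Rag GTPases, differed by 0.36 and by 0.07 by its other probe set that was not dim. Prkaa1, a catalytic subunit of AMPK, differed by 0.64 from dim values.

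Prkaa2, the AMPK subunit that predominates in heart, read 11.43 and 11.44 against 11.15 and 11.09, a difference of −0.32 (−0.57 to −0.07, limma adjusted p = 0.458). Another bright Prkaa2 probe set read 11.11 and 11.12 against 11.13 and 11.08, a difference of −0.01. Bcl2, which binds Beclin 1, differed by −0.38 and Prkab1 by −0.11. Over the settings tried Bcl2 ranged from −0.69 to −0.07 and Prkab1 from −0.22 to −0.01. The first wild-type array read 7.82 for Bcl2 and the second 7.20. Without adjustment 3 of 20 genes above 0 and 1 below had p under 0.05 in this list, against 5.45% and 4.76% of all genes. Only 1 gene of the list is dim. Of the 9874 genes with a mean of at least 7, 720 (7.29%) were higher at that threshold and 218 lower.

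**Figure D4:**
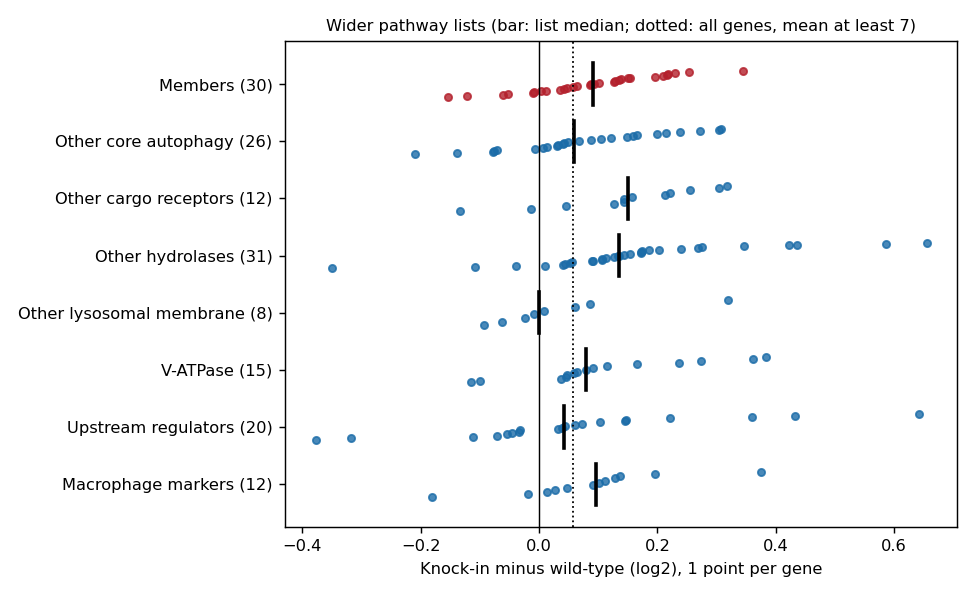
Knock-in minus wild-type differences (log2) by list, 1 point per gene at its representative probe set, with the number of genes in brackets, black bars at list medians and a dotted line at the median of all genes with a mean of at least 7 (0.06). Medians run from 0.00 for other lysosomal membrane genes to 0.15 for other cargo receptors; after quantile normalisation those of core autophagy, lysosomal membrane genes and upstream regulators lie below 0.

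Macrophages are rich in lysosomes, so their markers are given beside the lysosomal values. Of 12 markers 10 lay above 0 with a median of 0.10, but 7 with medians of 0.04 and 0.05 after quantile normalisation and cyclic loess. The levels had list medians of 8.73 and 9.03 on the wild-type and 9.10 and 9.07 on the knock-in arrays. Their summed linear signal was 11616 and 12356 against 13201 and 12448. The members' own sum was 83790 and 83075 against 86801 and 90195. Fibroblast markers had a median difference of 0.17, which was 0.11 and 0.10 after those normalisations and 0.07 without knock-in replicate 2. Endothelial markers had 0.17, which was 0.09 after either normalisation. Lymphocyte markers had −0.20, and −0.11 without wild-type replicate 1. Of these 8 markers 6 were dim and may hold mostly background. Among all genes, dim ones included, 46.9% lay above 0, against 65% of genes that were not dim. The part of any of these cells, and of the liver transcripts, in the members' differences was not tested.

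**Figure D5:**
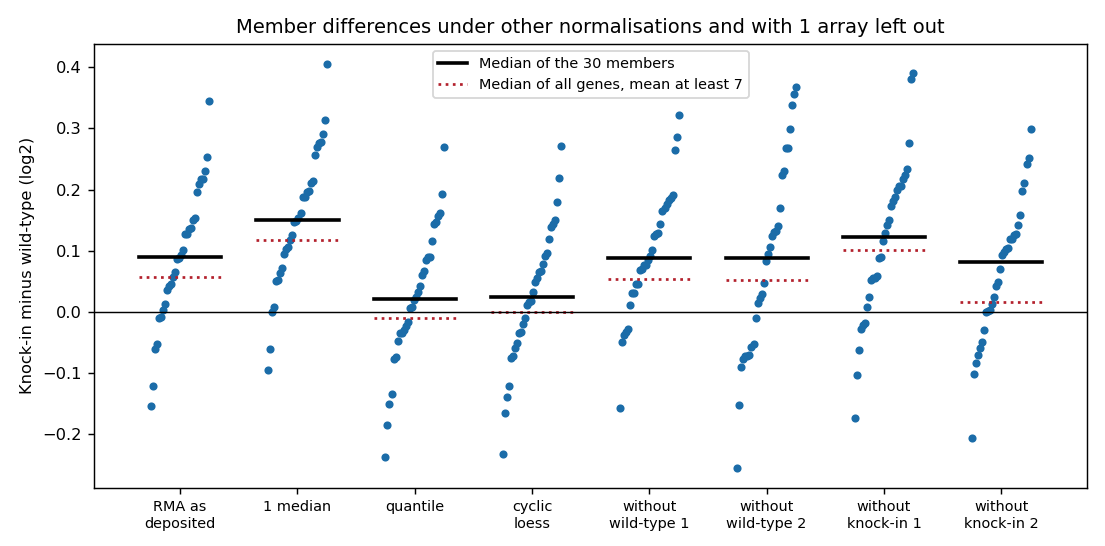
Differences (log2) of the 30 members, sorted within each setting, by RMA values as deposited, under other normalisations between arrays and with 1 array left out. Black bars are member medians, from 0.02 to 0.15, and red dotted bars the medians of all genes with a mean of at least 7, which move with them.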

How the data were processed

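Per the labels, Trizol-extracted heart RNA was hybridised as biotin-labelled cRNA, and the wild-type scans were normalised with the knock-in scans alone for these values. The deposited values are log2 RMA summaries (background correction, quantile normalisation and 1 value per probe set) made by the authors in Expression Console (Affymetrix), as listed per the submitters' processing notes with its version not given in the sources used here. RMA removes a shift common to most probes.

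Of 45101 probe sets 64 controls were left out. Names came from the array's annotation: 34945 tested probe sets had 1 symbol, 932 several and 9160 none listed. All 30 members matched RefSeq by gene ID. Differences were fitted with limma 3.58.1 (R 4.3.3; lmFit and eBayes, no covariate, 2 residual and 4.54 prior degrees of freedom) on all 45037 probe sets, with Benjamini-Hochberg adjustment and a threshold of 0.05. Tables and plots used Python 3.11.15, pandas 2.3.3 and matplotlib 3.10.9. In 10 simulated sets of 45037 probe sets, a few of them changed, the fit called 62.7% of those changed by 1, 99.3% by 2 and 100% by 4, and 0.0205% of the others; differences as small as the members' were not simulated. The number of arrays limits the precision.

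All 30 members are named; values on every array are given for the ATG8 family, Tfeb and the 12 smallest p, and up to 3 genes per direction are named from each wider list. Further probe sets were chosen after their values were seen. The members and lists were chosen with earlier results of these data known. Alternatives were 2 other eBayes settings, no dim probe sets, no probe sets prone to cross-hybridise, 3 normalisations, array weights, a replicate block, left-out arrays, another threshold and averaged probe sets.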

Additional observations from a re-analysis of the deposited data

How the results depend on the processing

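No member probe set was called under any alternative tried, and the lowest adjusted p was 0.237 among the representative ones and 0.143, for Becn1 without wild-type replicate 2, among the others with an unadjusted p under 0.05. Over all probe sets limma called 3, against 1 with only probe sets of a mean of at least 7, 11 with arrays shifted to 1 median, 5 at an adjusted p threshold of 0.1 and 0 to 2 with 1 array left out (0 without knock-in replicate 1). The member median of 0.09 moved to 0.15 with arrays shifted to 1 median, 0.022 after quantile normalisation and 0.025 after cyclic loess, and lay between 0.08 and 0.12 with 1 array left out. Of 30 members 24 were above 0 by the deposited values, 28, 18 and 18 under those normalisations and 20 to 25 with 1 array left out. With the replicate number as a block 4 probe sets were called in all and 0 of the members. Deviations from the group means of same-numbered arrays correlated at 0.08. With 2 arrays a group this is 1 correlation, which cannot tell whether same-numbered samples were handled together, and the labels do not say. Of 450 member gene values under alternatives 34 turned sign, in 14 genes, and the other 16 genes kept theirs. The other eBayes settings, the array weights, the replicate block and the other threshold left each of these differences unchanged. Leaving out dim probe sets did too, since no representative is dim. Values under these settings are part of the 450 and could not turn sign. With arrays shifted to 1 median Atg9a turned to 0.00026, Atg4b to 0.0083, Map1lc3b to 0.053 and Gabarap to 0.050. After quantile normalisation and cyclic loess Ulk1 lay at −0.035 and −0.032, Ulk2 at −0.029 and −0.020, Map1lc3a at −0.034 and −0.051, Gabarapl1 at −0.023 and −0.034, Gabarapl2 at −0.047 and −0.059 and Ctsb at −0.017 and −0.0096. Averaging probe sets gave −0.020 for Atg7, −0.0037 for Map1lc3a and 0.018 for Map1lc3b, and without probe sets ending in _x_at or _s_at Map1lc3a lay at −0.010. With 1 array left out Ulk1 ranged from −0.091 to 0.18, Atg14 from −0.0099 to 0.18, Map1lc3a from −0.070 to 0.076, Map1lc3b from −0.038 to 0.022, Gabarap from −0.063 to 0.042, Gabarapl1 from −0.059 to 0.13, Gabarapl2 from −0.076 to 0.10, Lamp2 from −0.028 to 0.30 and Npc1 from −0.25 to 0.012. The cause of these changes was not tested. Dim probe sets limit what can be said of 17 of the 74 member probe sets.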

Other observations

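Several genes of the wider lists had probe sets that disagreed, and these were picked out after their values had been seen. Tmem41b, an endoplasmic reticulum protein that supplies lipid to autophagosomes, has 6 probe sets with differences from −0.21 to 1.03. The one at 1.03 read 5.91 and 6.75 in wild-type and 7.53 and 7.19 in knock-in hearts, and its mean lay just under 7 (limma adjusted p = 0.458). Bcl2 differed by −0.38 by its brightest probe set, at 7.82 and 7.20 against 7.20 and 7.07, but by 0.28 and, from a dim probe set, 0.36 by the next. Atp6v1g1, a V-ATPase subunit gene, differed by −0.10 and 0.28 by its pair of probe sets that were not dim.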
